A study of Mus musculus with 2 samples.

Results

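The complement components described here are the 9 genes C1qa, C1qb, C1qc, C2, C3, C4b, Cfb, C3ar1 and Cd55. They were chosen by gene symbol, and all 9 were found among the 14678 genes of the deposited table. The study profiled mouse uteri at gestation day 2.5 (G2.5), before implantation, with 1 Dox+ and 1 Dox− digital gene expression (DGE) library, each made from the pooled RNA of 3 uteri. All females were double transgenic (VEGFtetO/tetO with beta-AKtg/wt) littermates of 9 to 10 weeks, mated to VEGFtetO/tetO males. In these mice 4 tet operator copies lie in the VEGF promoter, and a tetR-Krab repressor is driven in all tissues by the β-actin promoter. Dox+ females ate chow with 200 mg/kg doxycycline, which frees the promoter, and Dox− females were taken off it at 3 to 4 weeks of age, which represses VEGF. Loss of VEGF and loss of doxycycline thus changed together and cannot be told apart. With 1 library per condition no difference has a replicate check, and no test between conditions was possible.

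Complement is a cascade of plasma and tissue proteins that marks surfaces for removal and calls in leukocytes. C1q binds antibody or altered surfaces and starts the classical pathway, in which C4 and C2 form an enzyme that cleaves C3. The alternative pathway reaches the same step through C3 itself and factor B, membrane regulators such as CD55 dismantle these enzymes on host cells, and the C3a fragment acts on leukocytes through its receptor. In the rodent uterus, C3 is a well known secretory product of the epithelium under estrogen, and tissue macrophages are the main source of C1q.

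A gene was measured by the number of its tags, called the copy number. Copy numbers are given beside the level in TPM, which is tags per 1000000 clean tags, and the clean tags were 5985925 in Dox+ and 5844314 in Dox−. In DGE a transcript gives 1 tag whatever its length, so these levels need no length correction, but genes may differ in how well their tag was captured. Intervals are at 95%, from Poisson or Clopper-Pearson limits, and reflect counting error alone. Vegfa, the targeted gene, had 247 copies in Dox+ and 125 in Dox−, 1.93-fold lower (1.55 to 2.41). The uterine genes Hoxa10, Hoxa11, Myh11 and Des were all abundant, the fewest copies being 785 of Hoxa11 in Dox−. Of 9 uterine stromal, epithelial and muscle genes, 8 had 200 combined copies or more, of which 3 were 1.5-fold higher and 4 lower in Dox−, with a median log2 ratio of -0.66. The 4 lower were Hoxa10, Hoxa11, Des and Hand2, the last with 985 copies in Dox+ and 143 in Dox−. The 3 higher were Pgr, Esr1 and Wnt7a, the last with 48 and 273. Foxa2 had few copies, 35 and 34.

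The tag site was read from the data, because the restriction enzyme is not given in the sources used here. Among coding genes whose longest annotated transcript had 500 to 1200 bases, 74 of 268 genes with a CATG site but no GATC site were in the table, 27.6% (22.3 to 33.4%). Of genes with GATC but no CATG only 2 of 71 were, 2.82% (0.343 to 9.81%), and of genes with both sites 1127 of 3894, 28.9%. The tags therefore started at CATG, the site of the enzyme NlaIII. The site of a gene nearest to its 3′ end is the one that such a library mostly reads, and these candidate tags of 21 bases are shown. The copy numbers are given per gene and not per tag, so which tags were counted was not seen. The candidate tags were taken from the longest annotated transcript of each gene on NCBIM37 (mm9), 5′ to 3′, with the CATG site in capitals.
C1qa: CATGaccctagtatggacagt
C1qb: CATGgatgcgtaatcacgggg
C1qc: CATGgtgggcatagagggctc
C4b: CATGgggatggacggggaaac
C2: CATGgtcactgactcctttat
C3: CATGtggggcctctcctctga
Cfb: CATGcaaaggagattccgggg
C3ar1: CATGtgttaaatcactagaaa
Cd55: CATGttcatagccaaactgta

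Every member lies on the minus strand. The tags of C1qa (chr4:136453691-136453711, exon 2 of 3) and C1qc (chr4:136445998-136446018, exon 3 of 3) are coding sequence, and that of C1qb (chr4:136436196-136436216, exon 3 of 3) runs from the coding sequence into the 3′ UTR. The tag of C3 (chr17:57343695-57343715, exon 40 of 41) and that of C4b (chr17:34865728-34865748, exon 40 of 41) are coding, and that of Cfb is coding and spans an intron (chr17:34993863-34993957, from exon 16 of 18). The tags of C2 (chr17:34999782-34999802), C3ar1 (chr6:122797432-122797452) and Cd55 (chr1:132335721-132335741) lie in the 3′ UTR of the last exon. In C1qa the last CATG is at base 107 of a transcript of 1040 bases, 934 bases from its 3′ end. In the other 8 genes the distance was 138 bases in Cd55 to 300 bases in C1qc.

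For some members the tag does not name 1 gene. The C4b tag occurs letter for letter in the locus of C4a, the neighbouring duplicate, and so do 16 of the 30 CATG tags of the C4b transcript. Tags that matched several genes were not counted by the authors, and C4a is not among the genes of the table, so the copy number of C4b may leave out part of its tags. The Cfb tag is shared with Gm20547, a locus annotated across C2 and Cfb, and 3 of the 15 CATG tags of Cfb belonged to no other coding gene. Of the 18 CATG tags of C2, 4 belonged to no other coding gene, and the C2 tag shown was among them. Gm20547 was not in the table. For C1qa, C1qb, C1qc, C3 and C3ar1 every CATG tag was found in no other annotated coding gene, and for Cd55 12 of 16 were, with the tag shown among them.

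C1qb had the highest level of the members in both libraries, followed in Dox+ by C3, C1qa and Cfb and in Dox− by C3, Cfb and C1qa. Factor B, the enzyme component of the alternative pathway, showed the largest difference of the well counted members, at 2.40-fold higher in Dox−, and the C1q C chain was 1.58-fold higher. The C1q A and B chains and C3 differed by less than 1.5-fold. C2 was lower in Dox−, while Cd55, C3ar1 and C4b were higher, from few copies. Summed, the 9 genes held 2126 copies in Dox+ and 2604 in Dox−, or 355 and 446 TPM, 1.25-fold higher in Dox− (1.18 to 1.33).

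**Figure D1:**
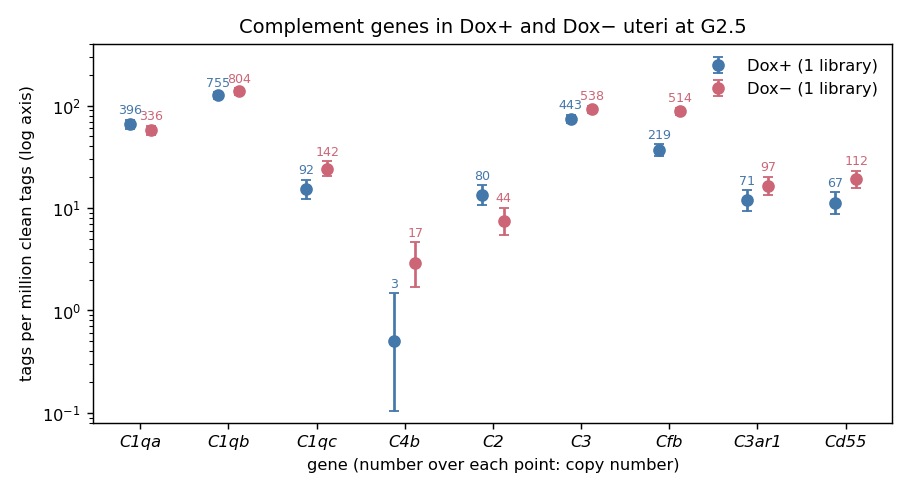
Level of each complement gene in TPM (log axis) in the Dox+ and the Dox− library, with 95% Poisson intervals and the copy number over each point. Cfb went from 219 to 514 copies, while C1qb, the most abundant, had 755 and 804.

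Following the study, folds were judged for genes with 200 or more copies over both libraries, which 5 of the 9 members had. The other 4 are given by their values. Of these 5, C1qc and Cfb were at least 1.5-fold higher in Dox− and none was 1.5-fold lower. Over all 6547 genes with so many copies, 15.2% were higher and 14.7% lower by that fold, and the median fold was 1.02. With so few members this count is not set apart from the background. At 2-fold, Cfb alone passed, where 4.61% of all genes were higher.

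C1q is built from A, B and C chains in equal number, and the 3 chain genes lie within 18.7 kb of chromosome 4 in the order C1qb, C1qc, C1qa. C1qa had 396 copies in Dox+ and 336 in Dox−, 66.2 and 57.5 TPM. This was 0.869-fold (0.749 to 1.01), and equal levels lay within the interval. C1qb had 755 and 804 copies, 126 and 138 TPM, a fold of 1.09 (0.986 to 1.21). It ranked 985th of all genes in Dox+ and 902nd in Dox−. C1qc had 92 and 142 copies, 15.4 and 24.3 TPM, 1.58-fold higher in Dox− (1.21 to 2.08). Its interval reaches below 1.5-fold.

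Summed, the chains held 1243 copies in Dox+ and 1282 in Dox−, a fold of 1.06 (0.976 to 1.14). The interval of the sum held 1, while the shares of the chains within it differed between the libraries. C1qa made up 31.9% of the C1q copies in Dox+ (29.3 to 34.5%) and 26.2% in Dox− (23.8 to 28.7%). C1qb made up 60.7% and 62.7%. C1qc made up 7.40% (6.01 to 9.0%) and 11.1% (9.41 to 12.9%). The ratio of C1qc to C1qa was 0.232 in Dox+ and 0.423 in Dox−, 1.82-fold higher (1.33 to 2.49, exact conditional interval), and needs no scaling between libraries. The copies were thus far from equal over chains, and C1qa, with its tag farthest from the 3′ end, was the chain whose share was lower in Dox−. The part of tag position in this shift was not tested.

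**Figure D2:**
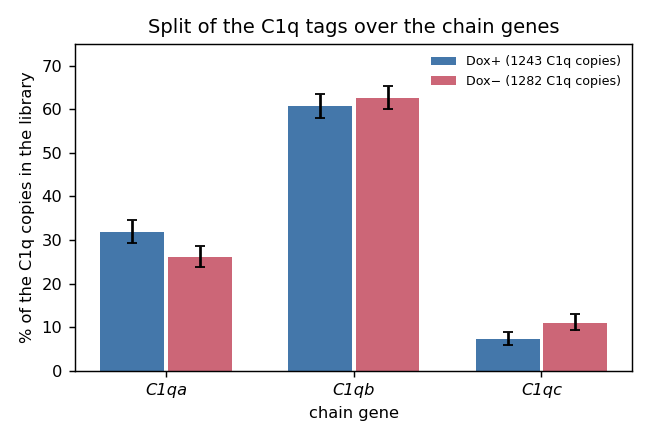
Share of the C1q copies of each library that belonged to each chain gene, as bars with 95% Clopper-Pearson intervals. C1qc went from 7.40% to 11.1% and C1qa from 31.9% to 26.2%, with C1qb at 60.7% and 62.7%.

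C4b and C2 encode the components that C1 cleaves to form the classical C3 convertase. C2 had 80 copies in Dox+ and 44 in Dox−, 13.4 and 7.53 TPM. It was 1.78-fold lower in Dox− (1.21 to 2.63) and the only member with an interval wholly below 1. C4b had 3 copies in Dox+ and 17 in Dox−, 0.501 and 2.91 TPM. Its ratio of 5.80 has an interval from 1.68 to 30.9. Both genes were under 200 combined copies. Among the 5532 genes with at least 20 but fewer than 200 combined copies, 25.1% were at least 1.5-fold higher and 23.4% at least 1.5-fold lower in Dox−, so that differences of this size were common at this depth.

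C3, the central component, had 443 copies in Dox+ and 538 in Dox−, 74.0 and 92.1 TPM. Its fold was 1.24 (1.09 to 1.41), above 1 beyond counting error and below 1.5. It was also below the upper quartile of all genes with 200 combined copies or more, 1.32. Cfb encodes factor B, which binds C3b and supplies the protease of the alternative convertase. It had 219 copies in Dox+ and 514 in Dox−, 36.6 and 87.9 TPM, 2.40-fold higher (2.05 to 2.83). Its rank among all genes went from 3690th to 1524th. In Dox+ there were 0.494 Cfb copies for each C3 copy and in Dox− 0.955, a ratio 1.93-fold higher (1.57 to 2.38). In Dox− the intervals of the levels of C3 and Cfb overlapped, whereas in Dox+ C3 lay above Cfb. C2 and Cfb are related genes, 85 bases apart and on the same strand. They went opposite ways, with 2.74 Cfb copies for each C2 copy in Dox+ and 11.7 in Dox−, a ratio 4.27-fold higher (2.81 to 6.52).

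C3ar1 encodes the receptor for the C3a fragment on myeloid cells. It had 71 copies in Dox+ and 97 in Dox−, 11.9 and 16.6 TPM, a fold of 1.40 (1.02 to 1.93). Cd55 encodes decay-accelerating factor, which takes C3 convertases apart on the cell surface. It had 67 and 112 copies, 11.2 and 19.2 TPM, 1.71-fold higher in Dox− (1.25 to 2.35). Both were under 200 combined copies. In Dox+ the levels of C1qc, C2, C3ar1 and Cd55 followed each other closely, from 15.4 to 11.2 TPM, and the intervals of neighbours in this order overlapped. In Dox− C1qc, Cd55 and C3ar1 again lay close together and C2 lay below them. Over the 9 members, 6 had an interval wholly above 1, C2 was wholly below, and those of C1qa and C1qb held 1. The share of all genes with such intervals was not computed, so this count has no background. Over the 12079 genes with 20 combined copies or more, the quartiles of the fold were 0.744 and 1.38.

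The rest of the pathway was followed with 45 further complement genes, of which 28 were in the table and 7 had 200 combined copies or more. None of the 7 was 1.5-fold higher in Dox−, 2 were 1.5-fold lower, and their median log2 ratio (Dox− over Dox+) was -0.50, against 0.03 over all 6547 genes. With genes of 20 combined copies or more, 19 in number, the median turned to 0.30. Among these 19, 8 had an interval wholly above 1, 6 wholly below 1 and 5 held 1, again without a share over all genes. All 37 complement genes in the table together held 1255 TPM in Dox+ and 1290 in Dox−, and Serping1, Clu and Cfd were the most abundant of them.

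**Figure D3:**
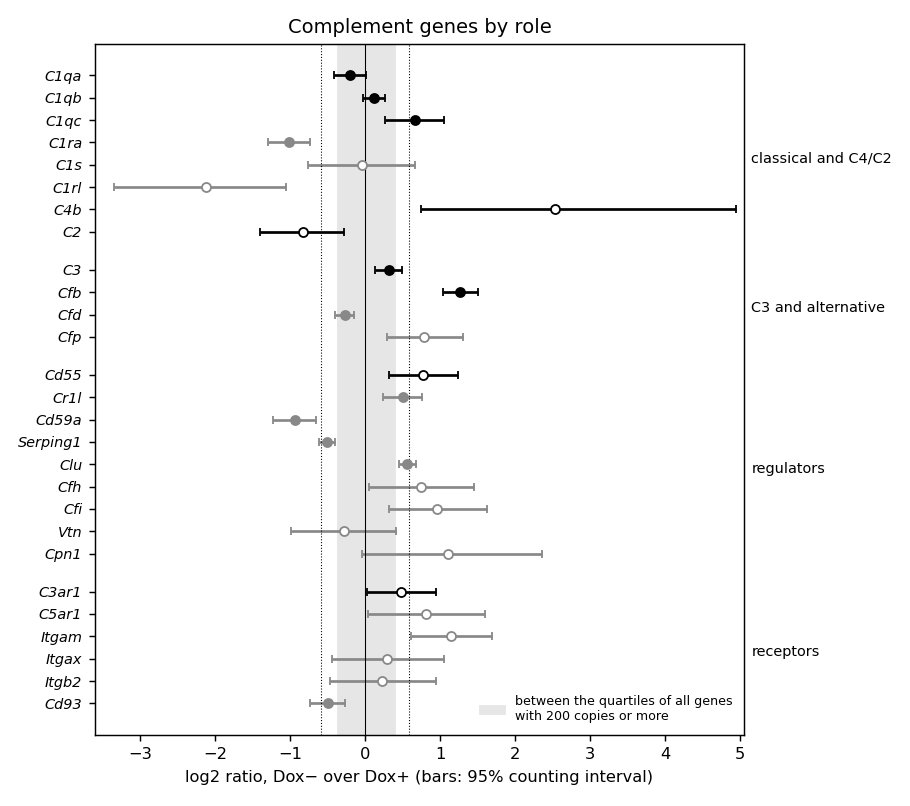
Log2 ratio of Dox− over Dox+ for complement genes with at least 20 combined copies, by role, with 95% counting intervals. Black marks the 9 members and grey other complement genes, filled points have 200 combined copies or more, dotted lines mark 1.5-fold, and C4bp, without a tag in Dox+, is left out. Cfb stands at 1.27 and C1ra at -1.01, on opposite sides of the shaded quartile range of all genes.

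Beside the C1q chains, C1ra and C1s encode the proteases of the C1 complex. C1ra had 332 copies in Dox+ and 161 in Dox−, 2.01-fold lower (1.66 to 2.45). A near-identical duplicate, C1rb, was not in the table, so the copies of C1ra are uncertain to that extent. C1s had 37 and 35 copies, and C1rl, a C1r-like protease, had 40 and 9. Serping1, the C1 inhibitor, had 1571 and 1080 copies, 1.42-fold lower (1.31 to 1.54). The classical pathway genes did not share 1 direction, since C1ra was lower and C1qc higher in Dox− by at least 1.5-fold.

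In the alternative pathway, Cfd encodes factor D, the protease that cleaves factor B, and is known as the adipocyte product adipsin. It had 1081 copies in Dox+ and 875 in Dox−, a fold of 0.829 (0.757 to 0.907). Cfp encodes properdin, which stabilises the alternative convertase and is made by leukocytes. It had 55 and 93 copies, 1.73-fold higher (1.23 to 2.46). Factor B, properdin and C3 thus had more copies in Dox− and factor D fewer, with only factor B past 1.5-fold from 200 copies or more. The terminal components were near the limit of detection. Hc, the gene of C5, had 11 and 2 copies, C6 had 6 and 7, and C8g had 7 and 5.

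The membrane regulators did not share 1 direction. Cr1l, the rodent regulator known as Crry, had 216 and 299 copies, a fold of 1.42 (1.19 to 1.70), in the direction of Cd55. Cd59a, which blocks the membrane attack complex, had 294 and 150 copies, 1.91-fold lower in Dox− (1.57 to 2.35). Clu, a soluble inhibitor of the terminal complex among other roles, had 1069 and 1541 copies, 1.48-fold higher (1.36 to 1.60). C4bp was singled out after its values were seen. It was listed at 0 copies in Dox+ and 26 in Dox−, a ratio of 8.88 with the Dox+ library set to 3 copies, and its counting interval starts at 6.72-fold.

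Among the other receptors, Cd93, an endothelial and myeloid surface protein first described as a C1q receptor, had 377 and 261 copies, 1.41-fold lower (1.20 to 1.66). Itgam, a chain of complement receptor 3, had 45 and 97 copies, 2.21-fold higher (1.54 to 3.22). Its partner Itgb2 had 34 and 39 copies, a fold of 1.18 (0.723 to 1.92).

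Whole uterus holds many cell types, and fewer cells of a type cannot be told apart from less RNA per cell. All 17 macrophage markers were in the table, with 292 TPM in Dox+ and 363 in Dox− summed. This was 1.24-fold higher (1.17 to 1.32), against 1.06-fold for the C1q chains. Mpeg1 had the most copies, 472 and 601, followed by Mrc1 with 163 and 241 and Csf1r with 186 and 181. The defining markers Csf1r, Aif1 and Trem2 had folds of 1.0, 1.07 and 1.0, and Emr1, the F4/80 antigen, had 70 and 102 copies. Only Timd4 was without a tag in Dox+. Of the 7 macrophage markers with 200 combined copies, Mrc1 was 1.5-fold higher and none was lower, with a median log2 ratio of 0.09. For each macrophage marker copy there were 0.711 C1q copies in Dox+ and 0.604 in Dox−, 0.850-fold (0.768 to 0.941). For C1qa alone this was 0.699-fold (0.595 to 0.822) and for C1qc 1.27-fold (0.964 to 1.69). These ratios depend on which markers are summed, as Csf1r, Aif1 and Trem2 lay near the 1.06-fold of the C1q chains. C3ar1 per macrophage copy differed by 1.13-fold (0.815 to 1.56), an interval that holds 1. The part of macrophage content in the difference of any member was not tested.

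Markers of other leukocytes were followed as well. The 7 pan-leukocyte genes in the table summed to 196 and 248 TPM, with Laptm5 at 224 and 446 copies, Cd53 at 236 and 266 and Coro1a at 234 and 263. Of the 5 with 200 combined copies or more, Laptm5 was 1.5-fold higher and none was 1.5-fold lower, with a median log2 ratio of 0.20. Tyrobp at 211 and 158 copies and Fcer1g at 177 and 134, named after their values were seen, had folds of 0.767 (0.620 to 0.947) and 0.775 (0.615 to 0.976). Ptprc and Lcp1, also named after their values were seen, had fewer than 200 combined copies. Ptprc had 49 and 130 copies, 2.72-fold higher in Dox− (1.94 to 3.86), and Lcp1 had 40 and 54. Of all 7 genes, 5 were higher in Dox− and 2 lower, where 6244 of 12079 genes with 20 combined copies or more were higher. Of the 10 neutrophil markers, 5 were in the table, and they summed to 7.85 TPM in Dox+ and 38.5 in Dox−, 4.90-fold higher (3.57 to 6.87). S100a8 had 24 and 98 copies, S100a9 9 and 71 and Mpo 9 and 47, while Csf3r had 2 and 9 and Cxcr2 3 and 0. None of the 5 reached 200 combined copies, and the defining markers Ly6g, Ngp and Camp were not in the table. Of 11 T, NK and B cell markers, 10 were in the table, with 15 and 19.2 TPM, 1.27-fold (0.957 to 1.70). Cd3g had 22 and 34 copies, Ncr1 37 and 18 and Cd3e 8 and 19, and Cd4 and Cd8a were without a tag in Dox+. The liver, the main source of plasma complement, left little trace. Of 9 liver genes, Ttr had 47 copies and none, Ahsg had none and 2, and Alb, Apoa1 and Fga were not in the table.

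**Figure D4:**
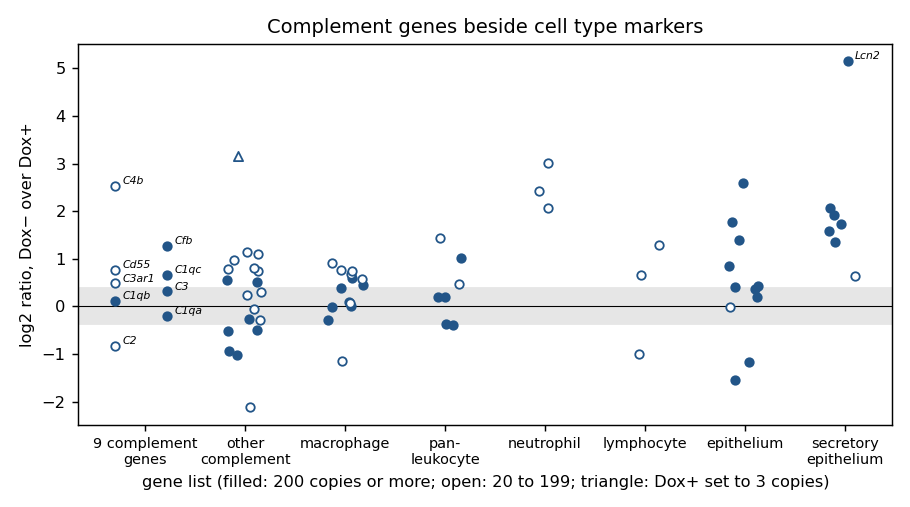
Log2 ratio of Dox− over Dox+ for each gene with at least 20 combined copies in the complement and marker lists, with the quartile range of all genes shaded and a triangle for C4bp, which had no tag in Dox+ and was set to 3 copies there. The macrophage markers lie mostly between 0 and 1, and the secretory epithelial genes with 200 combined copies all lie above 1.

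C3 and Cfb were set beside epithelial genes. The 11 epithelial markers summed to 1276 TPM in Dox+ and 1823 in Dox−, 1.43-fold higher (1.39 to 1.47), with 4 of 10 well counted genes 1.5-fold higher and 2 lower. Krt19 had 1554 and 2046 copies, Krt8 1330 and 1481 and Cldn7 877 and 2263. The 4 higher were Cldn7, Krt7, Epcam and Elf3, the last with 185 and 1083. The 2 lower were Cldn3 at 1482 and 494 copies and Cldn4 at 149 and 65. These genes, other than Cldn7, were named after their values were seen. Of 9 estrogen-induced secretory genes, 7 were in the table and all 6 with 200 combined copies were higher in Dox−, with a median log2 ratio of 1.83. Ltf, the gene of lactoferrin, had 905 and 2639 copies, Sprr2f 904 and 2936 and Lcn2 27 and 935. C3, itself a gene of this class, was higher by a log2 ratio of 0.31, below each of these 6, of which Muc1 had the smallest at 1.36. For each copy of the secretory genes there were 0.186 C3 copies in Dox+ and 0.0656 in Dox−, 0.353-fold (0.308 to 0.404). Cfb per secretory gene copy was 0.682-fold (0.577 to 0.808). Per epithelial marker copy Cfb was 1.68-fold higher (1.43 to 1.99), and C3 was 0.871-fold (0.764 to 0.993). The part of epithelial content in the difference of C3 or Cfb was not tested.

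C4b, Cfb and C2 lie together on chromosome 17, within 170 kb of the part of the major histocompatibility complex that holds no classical antigen-presenting genes. Of the 16 coding genes between them and the nearest 5 on each side, 15 were in the table and 9 had 200 combined copies or more. None of the 9 was 1.5-fold higher in Dox− and 2 were lower, with log2 ratios from -0.71 to 0.54, so that Cfb at 1.27 lay above all of them. Beside C4b, Tnxb was lower at 343 and 205 copies. The genes on either side of Cfb and C2 with enough copies, Rdbp at 295 and 225 and Ehmt2 at 939 and 858, were 0.781-fold and 0.936-fold. With fewer copies, Cyp21a1, between C4b and Cfb, had 20 and 86, and Slc44a4, beyond C2, had 61 and 125. Around the C1q genes on chromosome 4, 7 of 10 neighbours were in the table and 5 had 200 combined copies. Luzp1 was higher at 156 and 233 copies and Ephb2 lower at 339 and 189. These neighbours were chosen for their position, and those named here after their values were seen.

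**Figure D5:**
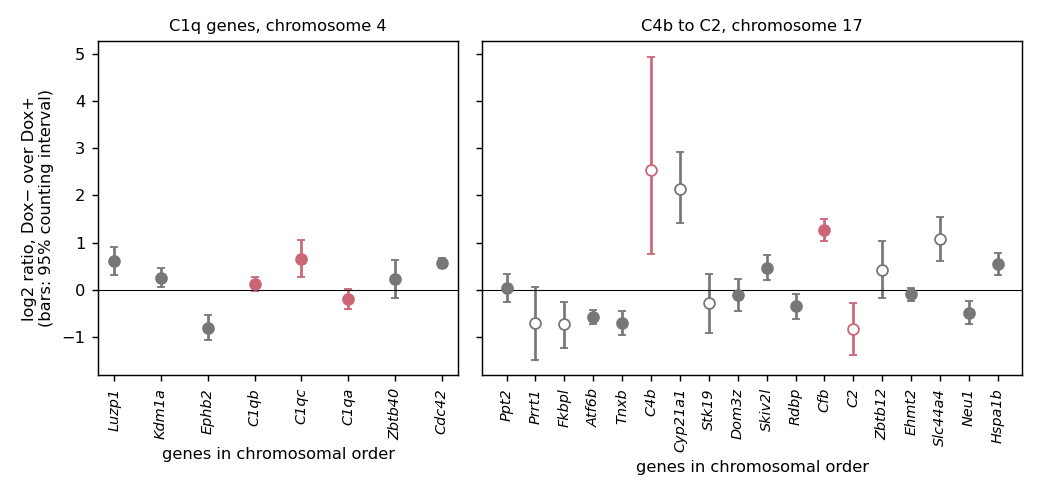
Log2 ratio of Dox− over Dox+ of the members (red) and neighbouring coding genes (grey) with at least 20 combined copies, in chromosomal order, with 95% counting intervals. Filled points have 200 combined copies or more, and Cfb at 1.27 lies above every other filled point on chromosome 17.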

How the data were processed

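Per the study's methods, reads of adaptor alone, poor reads and tags with fewer than 2 copies were dropped by the authors, who aligned clean tags to mouse reference mRNAs of mm9 and counted unambiguous tags per gene. CASAVA is named in the submitters' processing notes. The aligner, and whether antisense tags enter the counts, are not given in the sources used here. The deposited counts are clean tags per gene, unnormalized, and the deposited TPM is this count per 1000000 clean tags without length correction, 0.01 at a count of 0. The authors' comparison columns (log2 ratio, ratio or fold, P-value and FDR, which is a q-value) were deposited too and not used.

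The clean tags were recovered from count and TPM, which matched for all 14050 genes of Dox+ and 13948 of Dox− with a tag. Counted tags were 4437506 and 4218459. Folds are ratios of counts over clean tags with Clopper-Pearson intervals of the split. A count of 0 was set to 3 copies, and genes at 3 or fewer in each library have no fold. PCR copies are not independent molecules. No P-values were computed. Changes of a ratio within a library have exact conditional intervals. Positions are from GENCODE on NCBIM37, the assembly called mm9.

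The members and gene lists were chosen with earlier results of these data known. Named are all members, the 3 genes with most copies of each list, complement genes past 1.5-fold and Vegfa. Also named are all neutrophil markers in the table and genes stated as chosen later. The Csf1r, Aif1, Trem2, Emr1, Timd4, Muc1 and uterine values check cell types. Alternatives were other scalings, filters, folds and a pseudocount. Intervals and calls were tried on Poisson counts simulated with known folds. Such counts hold counting error alone, so they cannot show how the intervals fare with PCR copies or variation between pools. Python 3.11.15, numpy 2.4.6, scipy 1.17.1, pandas 2.3.3, matplotlib 3.10.9, R 4.3.3 and edgeR 4.0.16 (TMM factors) were used.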

Additional observations from a re-analysis of the deposited data

How the results depend on the processing

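The limits are 1 library per condition, counting intervals that leave out variation between pools, and the few copies of C4b. No paired analysis was possible because each condition has 1 library. The folds of the 9 members stayed within their counting intervals under TMM scaling, median-ratio scaling, summed counts as library size and a pseudocount of 1 TPM, with C4b, from 2.60 to 5.96, moving most and Cfb staying between 2.35 and 2.47. These scalings moved the median log2 ratio of all genes by at most 0.04. The count of 2 members at least 1.5-fold higher became 1 at 2-fold, 1 with an interval wholly past 1.5-fold and 4 without a filter on copies, by adding Cd55 and C4b. The count of 0 members lower became 1, C2, without the filter. The median log2 ratio of the other complement genes, -0.50, was 0.30 from 20 combined copies, through more genes of few copies. From 20 combined copies the macrophage median was 0.41 and the uterine -0.51. By the mean the secretory genes stood at 2.30 and the uterine genes at -0.39.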
